A study of Mus musculus with 2 samples.

Results

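The forkhead family was read from 1 array of hippocampus of 5/6Nx mice and 1 array of hippocampus of sham mice, both of the outbred ICR strain and both taken 8 weeks after the operation. 5/6Nx stands for 5/6 nephrectomy, an operation that takes away most of the kidney tissue to model chronic kidney disease, and sham animals go through surgery without that loss. The number, sex and age of the animals behind each array were not given in the sources used here, and the protocol in the labels speaks of RNA isolated from cells. With 1 array per group there was no replicate check, so no test was made and no p-value or error between animals is given, and a gene was counted as apart only where the arrays differed by at least 2-fold.

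Members were all genes whose name on the array starts with Fox, a letter between a and s, and a digit, matched by case, with control spots left out. They numbered 45 genes on 68 probes, of 34737 named genes and transcripts on 55681 probes, and each forkhead probe had 1 spot per array. Of the 45, 44 code for forkhead proteins and 1, Foxl2os, is an antisense transcript at the Foxl2 gene. The gene named Foxf1a on the array is Foxf1 in current nomenclature. Both arrays gave well-above-background signal for 34 members, the sham array alone for 3 (Foxi2, Foxl1 and Foxp2), and neither array for 8 (Foxa1, Foxa2, Foxa3, Foxb1, Foxb2, Foxd3, Foxn1 and Foxn4).

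Forkhead proteins are transcription factors that share a winged-helix DNA-binding domain and bind related sequences with a TGTTTAC core. In the brain they are known for neuronal differentiation (the Foxp genes), for building motile cilia on ependymal cells (Foxj1), and for the formation of the meninges and of brain vessels (Foxc1, Foxf2, Foxq1). The Foxo proteins are held in the cytoplasm when insulin signalling through PI3K and Akt phosphorylates them, and otherwise act in the nucleus on genes of metabolism, stress resistance and cell-cycle arrest, so their activity is not read from their own transcript level.

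Among the 34 measured members, Foxc1, Foxc2, Foxd1 and Foxd2 were at least 2-fold lower on the 5/6Nx array than on the sham array, and Foxo3 was at least 2-fold higher. Those 5 genes are 14.71% of the measured members, against 8.18% of the 25917 genes measured on the whole array. The lower genes made up 11.76% of members, against 3.29% of all genes, and the higher gene 2.94%, against 4.89%. All 5 had signals below the median of all measured genes. Among such dim genes the shares at least 2-fold apart were 20.83% of 24 members and 11.5% of all genes, with 1 member higher, against 7.32% of all dim genes, and 4 lower, against 4.22%. None of the 10 members with signal above the median was 2-fold apart, against 4.82% of all genes above it, and the widest difference among those 10 was 0.41 in size on the log2 scale. The median difference of the measured members, 5/6Nx minus sham on the log2 scale, was 0.17, against 0.05 for all genes, with 24 members above 0 and 10 below, and it was -0.12 when scaled to the spike-in controls.

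**Figure D1:**
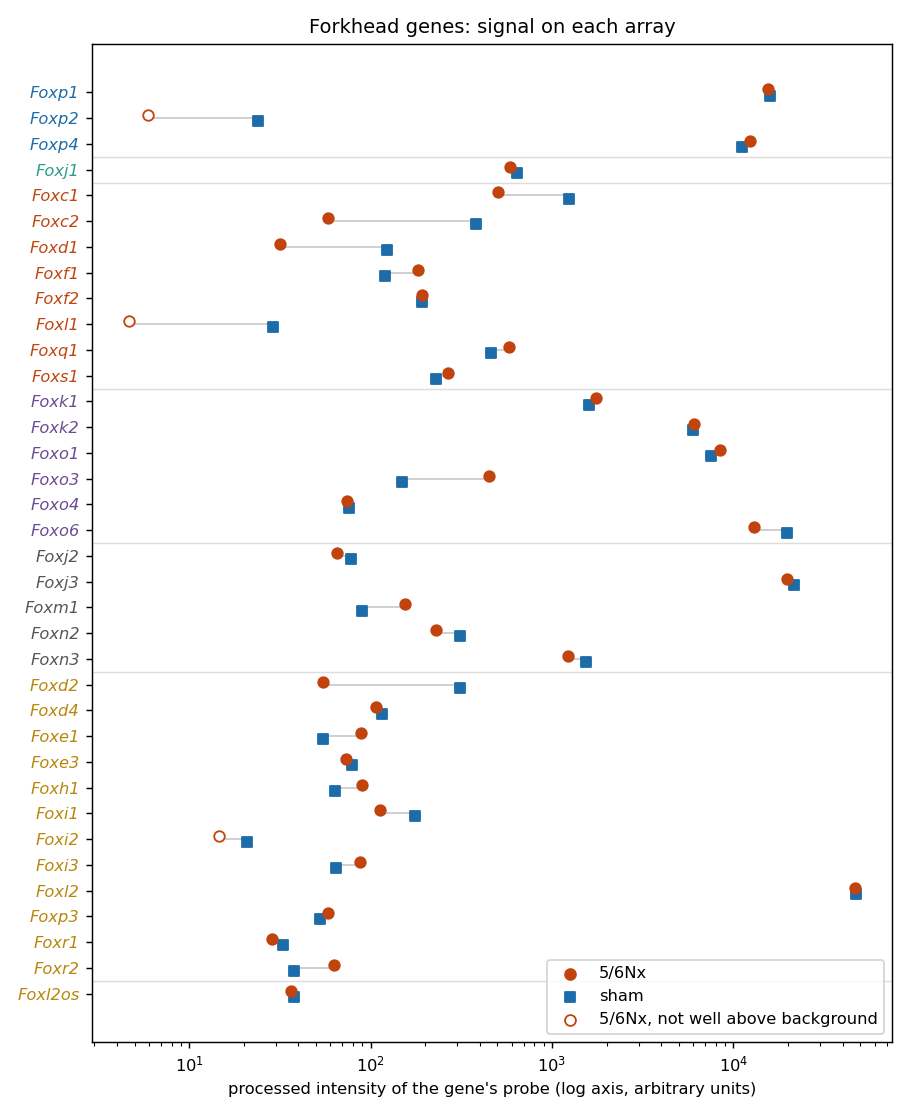
Processed intensity of the probe that stands for each forkhead gene (log axis, arbitrary units, before scaling) on the 5/6Nx array (circles) and the sham array (squares), for members above background on at least 1 array, with names coloured by role and open symbols not well above background. Most pairs of symbols overlap, Foxc1, Foxc2, Foxd1 and Foxd2 have the 5/6Nx circle to the left, and Foxo3 has it to the right.

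Signals are given as processed intensities before scaling, in arbitrary units, with the 5/6Nx array first. The differences are taken after division by the 75th percentile of the same array, 1263.2 on the 5/6Nx array and 1451.7 on the sham array, so that equal signals give a difference of 0.20. The scanner software's own error model, which assumes a 10% multiplicative error, put 0.20 to 0.38 on the difference of a forkhead probe. It covers the measurement of a spot and not the variation between animals. Probes of the same gene differed from each other by a median SD of 0.20 over the 7995 genes with at least 2 measured probes. Different probes hybridise differently, so signals are compared between arrays and not between genes.

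The windows from 250 bases before to 50 bases after the start of a gene are shown for 3 of the 4 lower genes and for Foxo3, because these members carry the differences. The sequences come from RefSeq on build GRCm38.p6, and Foxc2 had no entry in that table. Capitals mark the GC box GGGCGG and the CCAAT box CCAAT, on either strand.
Foxc1, chr13:31806396-31806695, plus strand: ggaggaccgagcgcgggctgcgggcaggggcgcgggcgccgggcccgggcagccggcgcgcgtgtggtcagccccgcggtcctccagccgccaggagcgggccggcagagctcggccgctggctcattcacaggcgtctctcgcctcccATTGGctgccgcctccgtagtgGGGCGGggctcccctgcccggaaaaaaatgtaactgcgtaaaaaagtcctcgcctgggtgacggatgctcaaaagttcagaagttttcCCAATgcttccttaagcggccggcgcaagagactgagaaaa
Foxd1, chr13:98353995-98354294, plus strand: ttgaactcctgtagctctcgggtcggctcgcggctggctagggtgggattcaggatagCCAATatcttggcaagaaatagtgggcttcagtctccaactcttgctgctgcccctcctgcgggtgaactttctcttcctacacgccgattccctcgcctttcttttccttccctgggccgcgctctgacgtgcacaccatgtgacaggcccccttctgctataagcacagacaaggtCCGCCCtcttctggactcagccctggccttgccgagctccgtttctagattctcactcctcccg
Foxd2, chr4:114908849-114909148, minus strand: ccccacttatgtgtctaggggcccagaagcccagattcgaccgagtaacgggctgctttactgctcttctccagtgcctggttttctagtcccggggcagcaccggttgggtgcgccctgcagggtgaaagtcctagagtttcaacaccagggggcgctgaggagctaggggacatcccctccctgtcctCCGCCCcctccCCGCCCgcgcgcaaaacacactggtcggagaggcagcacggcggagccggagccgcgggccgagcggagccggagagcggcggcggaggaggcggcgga
Foxo3, chr10:42276646-42276945, minus strand: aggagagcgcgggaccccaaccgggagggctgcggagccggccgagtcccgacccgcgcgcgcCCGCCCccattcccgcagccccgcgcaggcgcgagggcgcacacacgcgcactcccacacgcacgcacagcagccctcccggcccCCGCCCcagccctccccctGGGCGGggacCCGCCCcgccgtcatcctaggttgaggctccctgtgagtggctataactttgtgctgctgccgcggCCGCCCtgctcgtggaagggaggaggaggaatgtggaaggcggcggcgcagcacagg

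These 4 windows were rich in G and C, with 67.3% in Foxc1, 57.7% in Foxd1, 67.7% in Foxd2 and 75% in Foxo3, against a median of 52.7% over all 32851 windows of that length. The GC box occurred once in Foxc1 and in Foxd1, at 2 places in Foxd2 and at 5 in Foxo3. The CCAAT box occurred at 2 places in Foxc1 and once in Foxd1, and not in the Foxd2 and Foxo3 windows. Over the 34 windows of the 29 forkhead genes in the table, 73.53% held a GC box, against 35.66% of all windows, and 44.12% held a CCAAT box, against 37.41%. The TATA box TATAAA was in 8.82%, against 13.62%, and the forkhead core TGTTTAC in 2.94%, which is the Foxa1 window alone, against 3.65%. The GC box was thus found in windows of members that were lower, higher and within 2-fold, and such matches are letters in a window and not shown to be sites.

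The meningeal and vascular members held 3 of the 4 lower genes, in roles that were assigned with earlier results of these data known. Foxc2, which acts in mesenchyme and in lymphatic vessels, had a signal of 58.6 on the 5/6Nx array, against 381.3 on the sham array (probe at chr8:123642693-123642752, build mm9). It was 5.66-fold lower, a log2 difference of -2.50, the lowest among the measured members, and -1.58 with normexp background correction and -1.45 with no background subtraction. Foxd1, known from the stroma of the kidney and from pericyte precursors there, had 31.6 on the 5/6Nx array, against 122.8 on the sham array (chr13:99126452-99126511). It was 3.38-fold lower (-1.76). Foxc1, required in mice for the meninges to form and for their supply of retinoic acid to the cortex, had 504.7 on the 5/6Nx array, against 1240.6 on the sham array (chr13:31902423-31902482). It was 2.14-fold lower (-1.10), just past the threshold, and fell short of it with normexp background correction (-0.98) and with no background subtraction (-0.97). Foxd1 also fell short there, at -0.79 and -0.64.

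The fourth lower gene was Foxd2, a gene of mesenchyme and of the developing kidney, listed here among members best known from other tissues. Its signal was 54.5 on the 5/6Nx array, against 310.6 on the sham array (chr4:114578944-114579003), 4.96-fold lower (-2.31), with -1.39 under normexp and -1.29 with no background subtraction. The long non-coding gene Foxd2os, which lies beside it and is no member by the naming rule, had its probe 9.89 kb away and gave 9.0 on the 5/6Nx array, not above background, against 33.3 on the sham array, above it. Probes of a further long non-coding transcript near Foxd2, given under other observations, did not all go this way.

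Markers of leptomeningeal fibroblasts, the connective tissue cells of the membranes on the brain surface, were lower on the same array as these genes. The list was chosen with earlier results of these data known, so it is no independent check on the Fox values. Of 16 measured markers 11 were at least 2-fold lower and none higher, with a median of -1.70, where 3.29% of all measured genes were 2-fold lower. The widest were the organic anion transporter Slc22a6 (-2.61), the retinoic acid synthesis enzyme Aldh1a2 (-2.59), the GABA and taurine transporter Slc6a13 (-2.53) and the collagen Col3a1 (-2.52). The markers' summed signal, on a scale where each array's 75th percentile is 1000, was 20631 on the 5/6Nx array and 66928 on the sham array, and of the 18 listed markers Slc47a1 and Tbx18 were above background on the sham array alone. Foxc1, Foxc2 and Foxd1 lay within the range of the list, which ran between -2.61 and 0.07. The part of meningeal tissue in the Fox values was not tested, and in bulk tissue fewer cells of a type and less RNA per cell cannot be told apart. Of the 5 genes of signals that the meninges send to the brain and that are known to depend on Foxc1 in mice, Aldh1a2 was lower. The bone morphogenetic protein gene Bmp7 had -0.67, the retinol dehydrogenase gene Rdh10 -0.07 and Bmp4 0.02. Of the fifth, Cxcl12, the brightest probe was at least 2-fold higher, but its probes disagreed in direction.

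Of the other meningeal and vascular members, 4 were within 2-fold and Foxl1 was not well above background on the 5/6Nx array. Foxf2, a gene of brain pericytes needed for the blood-brain barrier, had 192.1 on the 5/6Nx array and 192.5 on the sham array, a difference of 0.20. Foxq1, which is expressed in brain endothelium, had 576.8 on the 5/6Nx array and 460.8 on the sham array (0.52). Foxs1, a gene of mural cells and peripheral sensory neurons, had 267.8 on the 5/6Nx array and 230.4 on the sham array (0.42). These 3 vessel genes were within 2-fold, where Foxc1, Foxc2 and Foxd1 were below -1, and scaled to the spike-in controls Foxf2 stood at -0.09. Foxf1, a gene of endothelium and visceral mesenchyme, had 182.7 on the 5/6Nx array and 120.3 on the sham array (0.80). That probe was designed to a cDNA record. The other Foxf1 probe, designed to the reference transcript, stayed below the detection limit of each array, with 14.5 on the 5/6Nx array and 8.85 on the sham array. The Foxf1 value thus rests on the first probe alone. Foxl1, known from the mesenchyme of the gut, had 4.65 on the 5/6Nx array, not well above background, and 29.1 on the sham array. Against the lowest measurable signal this gives a bound of at least 1.48-fold lower on the 5/6Nx array.

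Endothelial markers lay close to 0 beside these genes, and mural cell markers lay on both sides of it. None of the 12 endothelial markers was 2-fold apart, with a median of 0.19, and the widest was the transporter Slco1a4 (0.49). Of 11 mural cell markers the potassium channel subunit Abcc9 was higher (1.02) and the aminopeptidase Anpep lower (-1.33), while Kcnj8 had 0.86 and Acta2 -0.69, and the median was -0.04.

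**Figure D2:**
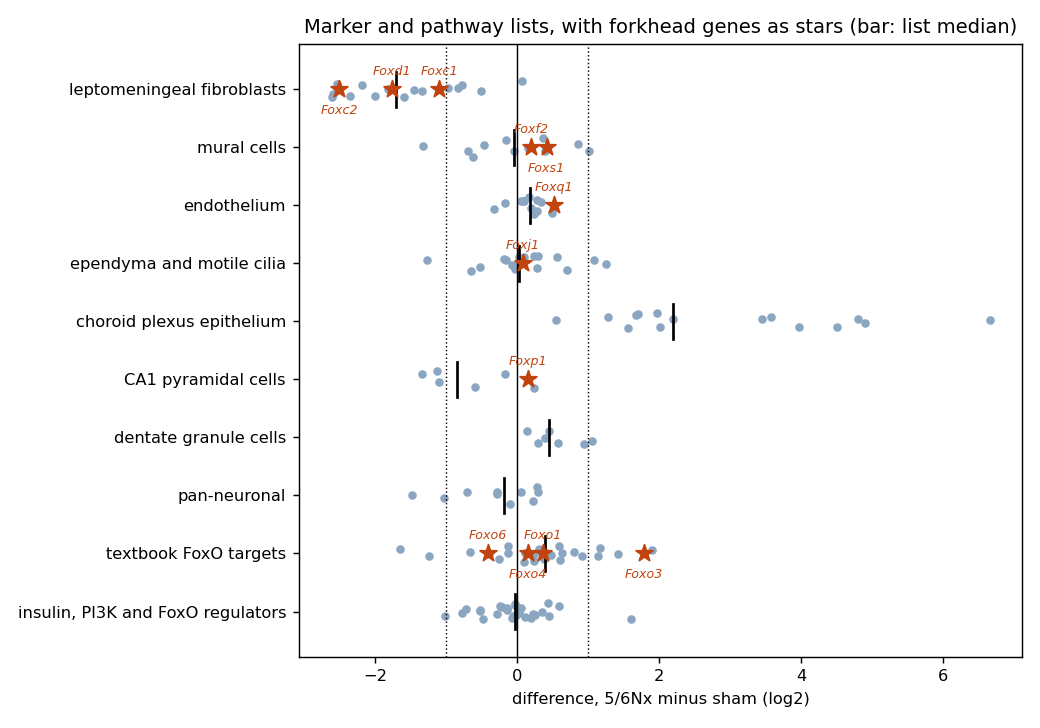
Difference, 5/6Nx minus sham (log2), of each measured gene of 8 cell type lists and 2 pathway lists (dots, with the list median as a bar), with some forkhead genes drawn as stars and dotted lines at 2-fold. The line of each star was assigned by hand and is not a result. Foxc2 and Foxd1 were placed with Foxc1 although they are known from other tissues as well, and Foxf1 (0.80) was not drawn. Foxc1, Foxc2 and Foxd1 lie below -1 on the line of the leptomeningeal markers, Foxj1 lies near 0 on that of the ependymal markers, and the choroid plexus markers lie above 0.

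Several lower genes sit beside other forkhead genes on their chromosomes, and the neighbours differed. On chromosome 13 the probe of Foxf2 (0.20) lies 70.93 kb from that of Foxq1 (0.52) and 179.28 kb from that of Foxc1 (-1.10). On chromosome 8 the probe of Foxf1 (0.80) lies 30.75 kb from that of Foxc2 (-2.50), which lies 11.71 kb from that of Foxl1, measured on the sham array alone. On chromosome 4 the probe of Foxd2 (-2.31) lies 18.81 kb from that of Foxe3 (0.10), a gene of the eye lens with 73.6 on the 5/6Nx array and 79.0 on the sham array. These 3 groups are shown because they hold a 2-fold lower gene, and in each at least 1 other gene was within 2-fold. Foxl2 (0.18) and Foxl2os (0.14), also neighbours, were both within 2-fold and are not among them. Of other transcripts near by, the GDP-mannose dehydratase gene Gmds, 9.11 kb from Foxc1, had -0.80, and 2 probes of Mthfsd between Foxf1 and Foxc2 had -0.24 and -0.41.

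**Figure D3:**
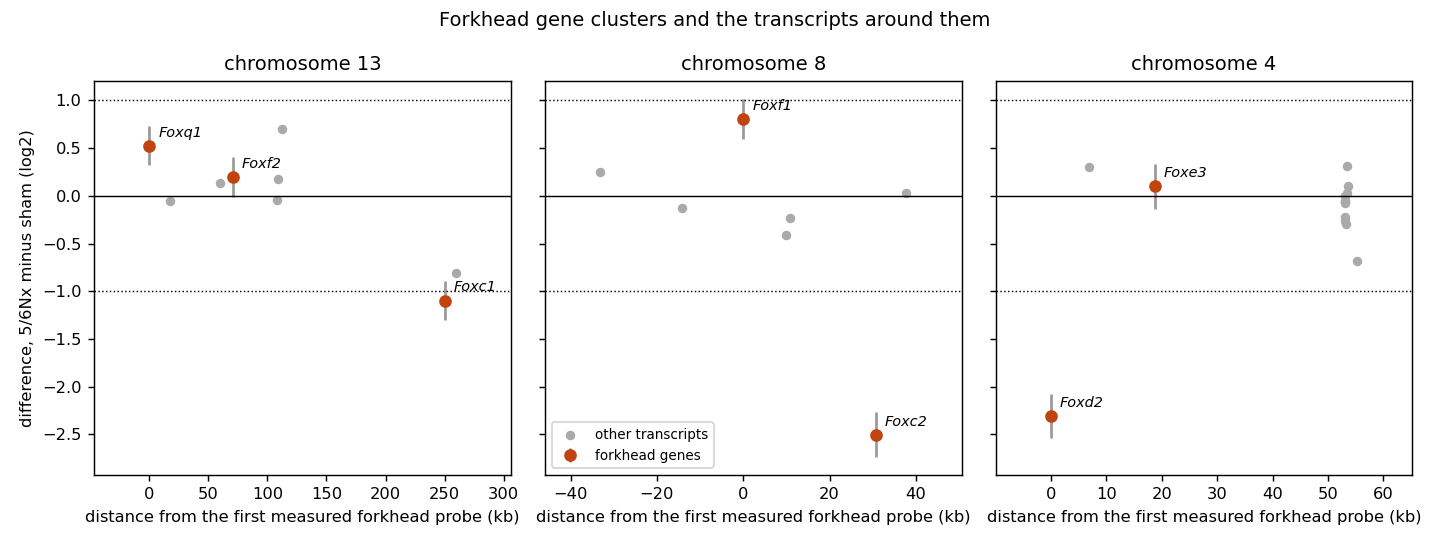
Difference, 5/6Nx minus sham (log2), against distance from the first measured forkhead probe (kb) in the 3 groups of neighbouring forkhead genes that hold a 2-fold lower gene, with forkhead genes labelled (bars: scanner error model) and grey points for other measured transcripts within 50 kb of one of them. Foxc1, Foxc2 and Foxd2 lie below the lower dotted line at 2-fold, and Foxq1, Foxf2, Foxf1 and Foxe3 lie between the dotted lines.

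The neuronal genes Foxp1 and Foxp4 were within 2-fold. Foxp1, a regulator of neuronal differentiation found in hippocampal pyramidal cells, had 15403 on the 5/6Nx array and 15936 on the sham array (0.15). Its 3 other measured probes gave 0.06, 0.23 and 0.63, all in the same direction. Foxp4, a relative expressed in developing neurons and other tissues, had 12310 on the 5/6Nx array and 11200 on the sham array (0.34), and a probe that shares 54 of its bases gave 0.29, while a further probe with 77.9 on the 5/6Nx array and 90.2 on the sham array gave -0.01. The sign of the small difference of Foxp1 depended on the scaling, and scaled to the spike-in controls it stood at -0.13.

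Foxp2, known in humans for speech and language and found in deep cortical layers, striatum and cerebellum, was near background. Of its 5 probes none was above background on the 5/6Nx array and 1 was on the sham array, with 5.90 on the 5/6Nx array and 24.0 on the sham array, a bound of at least 1.22-fold lower. The scanner error of that sham signal was 4.79 and is not in the bound, so Foxp2 is not read as lower. Among 5 reported Foxp2 targets the urokinase receptor gene Plaur was higher (1.57), Mef2c had -0.42 and Met -0.07, and the probes of Cntnap2 and of Srpx2 disagreed in direction. Foxb1, a gene of the mammillary body and thalamus, and Foxb2 were not above background on either array.

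Cell type markers of hippocampal neurons were present on both arrays but not level between them. All 6 markers of CA1 pyramidal cells and all 7 of dentate granule cells were measured on both. Over all measured genes, 4.89% were at least 2-fold higher on the 5/6Nx array and 3.29% lower. Of the CA1 markers Ccn3 (-1.34) and Wfs1 (-1.12) were among those at least 2-fold lower on the 5/6Nx array, with a list median of -0.84. Of the dentate markers Pdzd2 was higher (1.06), with a median of 0.46. Of 10 pan-neuronal markers Tubb3 (-1.48) and Elavl4 (-1.03) were at least 2-fold lower and none was higher, with a median of -0.19. Among 10 striatal markers Six3 was higher (2.07) and Tac1 lower (-1.16), with a list median of -0.01, and of 8 measured markers of thalamus and habenula 1 was lower, the glutamate transporter Slc17a6 (-1.58). Blood cell markers were lower for 7 of 7, with a median of -3.87. The part of these shifts in tissue make-up in the forkhead values was not tested.

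Foxj1, the regulator that switches on the genes of motile cilia, was within 2-fold: its signal was 587.6 on the 5/6Nx array and 639.2 on the sham array, a difference of 0.08 (chr11:116192214-116192273). Scaled to the median of each array, its difference was -0.08. Of 17 measured genes of ependyma and motile cilia, the axonemal dynein gene Dnah9 (1.09) and Cfap43 (1.25) were higher and the dynein gene Dnah5 was lower (-1.26), with Cfap52 at 0.71 and a median of 0.03. Of 7 genes that drive the multiciliated state, Ccno (1.19) and Gmnc (1.15) were higher, Rfx2 had 0.52 and Mcidas 0.40, and none was 2-fold lower. Rfx2 was dim, with 57.9 on the 5/6Nx array and 46.5 on the sham array. Mcidas was read by 1 measured probe, with 111226 on the 5/6Nx array and 97160 on the sham array, and what this probe reads was not checked. Over all measured genes, 4.89% were at least 2-fold higher and 3.29% lower. Choroid plexus epithelium, which carries cilia as well, had markers far apart on the arrays: 14 of its 15 measured markers were at least 2-fold higher on the 5/6Nx array, with a median of 2.20 and a summed scaled signal of 230310 on the 5/6Nx array and 19272 on the sham array, most of it from Ttr and Enpp2. The choroid plexus markers ranged between 0.55 and 6.66, and the difference of Foxj1, read by 1 probe, lay below that range. The part of choroid plexus tissue in the Foxj1 value was not tested.

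Of the metabolic members only Foxo3 was 2-fold apart. This Foxo gene, known in neurons for stress responses and cell death, is read by 2 probes 61.68 kb apart. The brighter one, designed to a cDNA record and lying at chr10:41967288-41967347, had 450.6 on the 5/6Nx array and 149.7 on the sham array, 3.46-fold higher (1.79). The other, designed to the reference transcript and lying at chr10:41905610-41905669, had 93.3 on the 5/6Nx array and 88.2 on the sham array, 1.22-fold higher (0.28). The call of Foxo3 rests on the first probe, since the second was within 2-fold, and their mean gave 1.04.

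The other Foxo members were within 2-fold. Foxo1, which governs gluconeogenic genes in the liver, had 8469 on the 5/6Nx array and 7544 on the sham array (0.37), and its second probe gave 0.09. Foxo4 had 73.7 on the 5/6Nx array and 76.3 on the sham array (0.15), and a probe that shares 52 of its bases gave 0.65. Another Foxo4 probe had 8.80 on the 5/6Nx array, not well above background, and 23.8 on the sham array, above it, so the probes of Foxo4 did not all point one way. Foxo6, the member most restricted to the brain and known for memory consolidation in mice, had 13001 on the 5/6Nx array and 19850 on the sham array, 1.33-fold lower (-0.41). Its second probe, with 394.5 on the 5/6Nx array and 542.0 on the sham array, gave -0.26. Foxo6 was below 0 as reported and under each alternative processing run on it, between -0.70 and -0.33, whereas Foxo4 was below 0 under 5 of its 10 alternatives, with -0.14 when scaled to the spike-in controls. Foxk1 and Foxk2, regulators of glycolysis and autophagy, had 0.33 and 0.22, with 1744 and 6039 on the 5/6Nx array and 1590 and 5955 on the sham array. Foxa1, Foxa2 and Foxa3, pioneer factors of liver and gut, were not above background on either array.

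Genes around the Foxo proteins showed differences in both directions. Over all measured genes, 4.89% were at least 2-fold higher and 3.29% lower, with a median of 0.05 as reported and -0.23 when scaled to the spike-in controls. The lists were not rescaled, so their counts above 0 hold for the scaling as reported. Of 28 regulators in the insulin, PI3K and FoxO pathway, the kinase gene Sgk1 was higher (1.60) and the nuclear export receptor gene Xpo1 lower (-1.02), with Akt2 at -0.71, Irs2 at 0.60 and a median of -0.03. Of 26 measured textbook FoxO targets, 4 were at least 2-fold higher and 2 lower, with 19 above 0 and a median of 0.39. The widest were the cell-cycle inhibitor gene Cdkn1a (1.90), the death ligand gene Tnfsf10 (-1.65), the pyruvate dehydrogenase kinase gene Pdk4 (1.43) and Igfbp1 (-1.24), and the other two higher ones were Txnip (1.17) and Fbxo32 (1.14). Cdkn1a and Pdk4 are also on a list of 16 glucocorticoid-regulated genes, of which 7 were at least 2-fold higher and none lower, with a median of 0.83. Without those 2 genes, 2 FoxO targets were higher and 2 lower of 24, with a median of 0.35. Sgk1, named above among the regulators, is on the glucocorticoid list as well.

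Members linked to the cell cycle or expressed broadly were within 2-fold. Foxm1, which drives the genes of mitosis, had 154.4 on the 5/6Nx array and 90.2 on the sham array, 1.97-fold higher (0.98), just short of the threshold. A second Foxm1 probe was below the detection limit of either array, with 8.31 on the 5/6Nx array and 18.6 on the sham array. Of 12 measured FoxM1 targets none was 2-fold higher and the cyclin gene Ccnb2 was lower (-1.01), with Cdc25b at 0.77, Mki67 at -0.62, Kif20a at -0.61 and a median of -0.07. Aurkb, Cenpf, Top2a and Bub1 were not above background on either array. Foxn2 had 228.2 on the 5/6Nx array and 309.9 on the sham array (-0.24), and a second probe gave 0.11, so its direction was not settled. Foxn3, a checkpoint gene, had 1226 on the 5/6Nx array and 1544 on the sham array (-0.13). Foxj2 and Foxj3 were at -0.05 and 0.07, with 65.3 and 19625 on the 5/6Nx array and 77.7 and 21516 on the sham array.

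**Figure D4:**
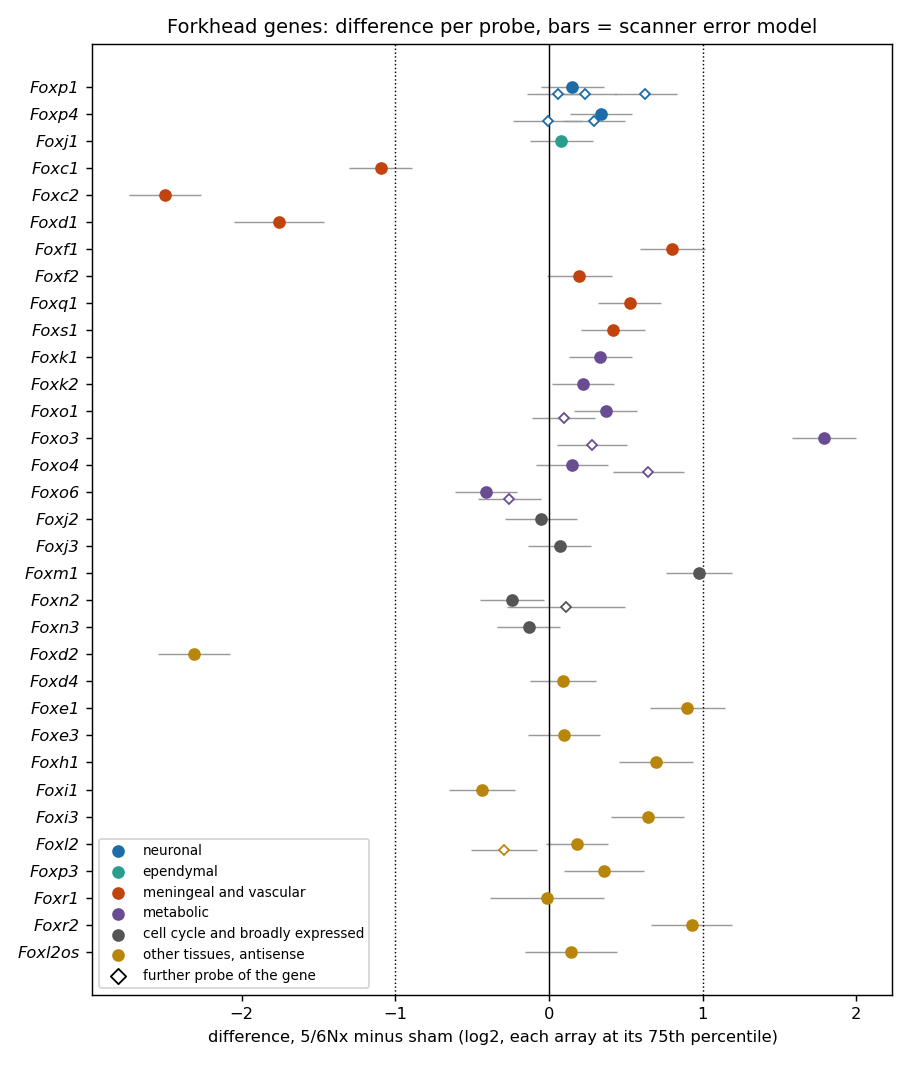
Difference, 5/6Nx minus sham (log2), of measured forkhead probes by gene and role, with filled points for the probe that stands for the gene, diamonds for further probes, bars for the scanner software's error model and dotted lines at 2-fold. Foxc1, Foxc2, Foxd1 and Foxd2 lie left of -1 and one of the probes of Foxo3 lies right of 1.

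Members best known from other tissues were mostly dim and, apart from Foxd2, within 2-fold. Foxr2, a gene of the testis that is activated in some brain tumours, had 63.0 on the 5/6Nx array and 38.1 on the sham array (0.93), and the thyroid gene Foxe1 had 88.8 on the 5/6Nx array and 54.7 on the sham array (0.90). Foxh1, a partner of Smad proteins in Nodal signalling, had 90.2 on the 5/6Nx array and 63.9 on the sham array (0.70), and Foxi3, a gene of ectodermal placodes, had 87.1 on the 5/6Nx array and 64.2 on the sham array (0.64). These 4 were the widest of the group above 0. Foxi1, known from the inner ear and from acid-secreting cells of the kidney, had 113.2 on the 5/6Nx array and 176.0 on the sham array (-0.44). Foxp3, the regulator of regulatory T cells, had 58.3 on the 5/6Nx array and 52.4 on the sham array (0.36). Foxd4 had 107.3 on the 5/6Nx array and 115.9 on the sham array (0.09), and Foxr1 had 28.6 on the 5/6Nx array and 33.1 on the sham array (-0.01). All of these were within 2-fold, and Foxi1 stood at -0.72 when scaled to the spike-in controls. Second probes of Foxe1 and Foxr1 stayed below the detection limit of each array. They read 4.38 and 7.30 on the 5/6Nx array, and 4.43 and 6.26 on the sham array. Foxi2 had 14.5 on the 5/6Nx array, not above background, and 20.9 on the sham array, a bound of at least 1.07-fold lower. The scanner error of that sham signal was 4.29 and is not in the bound, so Foxi2 is not read as lower. Foxd3, Foxn1 and Foxn4, known from neural crest, thymus and retina, were not above background on either array.

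Foxl2, the ovarian member, was read by 2 probes that point in opposite directions although they share 12 bases on chromosome 9. The sequences are shown, with the shared bases in capitals, because the pair shows how far the reading of one gene depends on the probe.
Foxl2 first probe, chr9:98856894-98856950, plus strand: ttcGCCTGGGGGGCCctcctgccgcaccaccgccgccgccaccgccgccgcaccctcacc
Foxl2 second probe, chr9:98856846-98856905, plus strand: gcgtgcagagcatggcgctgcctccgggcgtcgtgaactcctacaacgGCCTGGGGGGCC

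The first probe, with 81.7% G and C, had 46757 on the 5/6Nx array and 47398 on the sham array, a difference of 0.18. The second, with 71.7% G and C, had 117.5 on the 5/6Nx array and 165.4 on the sham array, a difference of -0.29. The direction of Foxl2 was therefore not settled, and neither was its level. Its place among the 10 members with signal above the median rests on the first probe alone. The antisense transcript Foxl2os had 36.4 on the 5/6Nx array and 37.8 on the sham array (0.14). A second Foxl2os probe stayed below the detection limit of each array, with 10.6 on the 5/6Nx array and 11.9 on the sham array. Of the 8 members with at least 2 measured probes, 5 had these in 1 direction (Foxo1, Foxo3, Foxo4, Foxo6 and Foxp1), and the others were Foxl2, Foxn2 and Foxp4.

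**Figure D5:**
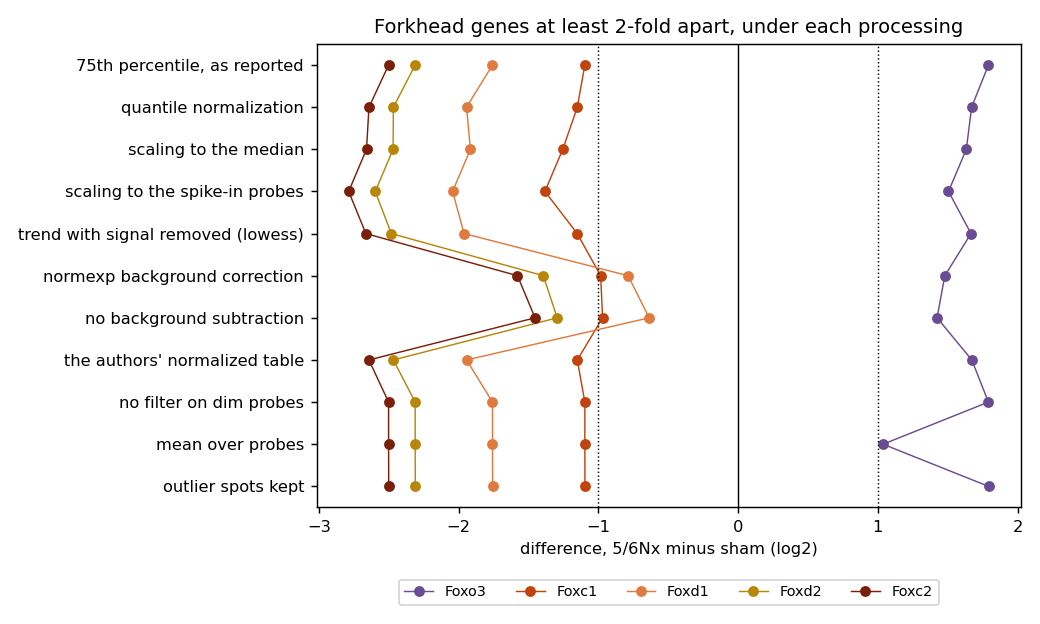
Difference, 5/6Nx minus sham (log2), of the 5 forkhead genes at least 2-fold apart, under the processing as reported (top) and under each alternative (rows below), with dotted lines at 2-fold. Foxc2 and Foxd2 stay below -1 and Foxo3 stays above 1 in every row, while Foxc1 and Foxd1 lie between -1 and 0 with normexp background correction and with no background subtraction. The mean over probes is the only row that includes the dimmer probe of Foxo3.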

How the data were processed

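Total RNA of 1 hippocampus sample per group was amplified to cRNA and labelled with Cy3 for 1-colour Agilent arrays, as the labels' protocols state. The deposited values were intensities from Agilent Feature Extraction (version 10.7.1.1 per the file headers, 9.5.1.1 per the submitters' processing notes), background-subtracted by that software, with probe coordinates on mm9. Both arrays were on 1 slide. The authors also deposited a table of normalized intensity values, used as an alternative. Control and outlier spots were left out, each array's log2 processed signal was taken relative to its 75th percentile, spots of a probe were averaged, and a gene took its brightest probe among those well above background on at least 1 array. A bound sets the bright array against the higher of the dim probe's signal and the lowest signal well above background, and leaves out the scanner error. Well above background were 72.53% of the 59305 spots on the 5/6Nx array and 72.74% on the sham array, and 0 were saturated. The number of arrays, 1 per group, limits the precision: no test was made. Members, lists and roles were chosen with earlier results of these data known. Members are accounted for by name, except a few items of the family and of the lists that are not reported here, and of each list at most 4 genes are named, those with the widest difference whose probes lie in 1 direction. A few further genes (the rest of the list of signals that depend on Foxc1, dim or disagreeing probes) are named to account for small lists. The reading and scaling were tested on simulated data. Python 3.11.15 and pandas 2.3.3 were used, with R 4.3.3 and limma 3.58.1 for the normexp alternative (offset 50). Quantile normalization, a further alternative, was run in Python. The other alternatives were scaling to the median or to 8 spike-in probes, a lowess trend removed (span 0.3), no background subtraction, no filter on dim probes, genes with signal above the median, the mean over probes, outlier spots kept, and thresholds of 1.5-fold and 3-fold.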

Additional observations from a re-analysis of the deposited data

How the results depend on the processing

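Foxc2 and Foxd2 were at least 2-fold lower and Foxo3 at least 2-fold higher under all 10 alternatives run on their values, with ranges of -2.79 to -1.45, -2.60 to -1.29 and 1.04 to 1.79. Not all of these could alter a value. Foxc2 and Foxd2 have 1 probe each, so the mean over probes and no filter on dim probes returned the reported values. No forkhead spot was an outlier, so keeping outlier spots hardly mattered. The authors' table nearly repeated quantile normalization, with -2.64 for Foxc2 in both. For Foxo3, each alternative but the mean over probes (1.04) used its brighter probe alone, and the other probe gave 0.28. These settings thus say little about the choice of probe. Foxc1 ranged between -1.38 and -0.97 and Foxd1 between -2.04 and -0.64, and both lost the 2-fold call with normexp and with no background subtraction, where 2 members were lower in place of 4. Over all genes, 495 were at least 2-fold lower with normexp and 466 with no background subtraction, against 852 as reported. With signal above the median, 0 members were higher and 0 lower, since all 5 are dim. At 1.5-fold, 7 members were higher and 4 lower. The share of all genes at that threshold is not given here, so these counts are not read as a result. The median of the measured members was 0.0084 with scaling to the median and -0.12 with scaling to the spike-in probes, which moved the median of all genes to -0.11 and -0.23. Of the calls over all genes, 59.8% were higher as reported, 49.2% with quantile normalization, 42.3% with scaling to the median, 29.7% with the spike-in probes, 49.0% after lowess and 49.4% in the authors' table. Over all alternatives, 21 of 34 members kept their sign and 13 did not, among them Foxf2, Foxj1 and Foxp1, and none of the 5 called genes was among the 13. No paired analysis was possible because there was only 1 array per group, and no array could be left out. Dim probes limit the reading of most members, and variation between animals was not measured.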

Other observations

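Near Foxd2, a further probe 9.89 kb away, on a long non-coding transcript, gave 6.4 on the 5/6Nx array, not above background, and 42.5 on the sham array, above it. Another probe of that transcript, 6.89 kb away, had 21.2 on the 5/6Nx array and 19.8 on the sham array (0.30). The probe at 9.89 kb lies at the same distance as that of Foxd2os, so these readings are not taken as separate observations.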
